A study of Mus musculus with 2 samples.

Results

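Glycolysis and the transport of glucose and lactate were examined in open chromatin of regulatory T (Treg) cells that lack transketolase (Tkt). The set held 37 genes, listed by symbol for their roles in these steps, and a peak was counted for a gene where the authors had assigned it to that symbol. By this rule 45 of 19680 peaks in the knockout list and 64 of 34440 in the wild-type list belonged to the set. ATAC-seq marks open chromatin by the places where the Tn5 transposase inserts sequencing adapters, and each list gives the regions called in 1 library. TKT cKO Treg were CD4+CD25+YFP+ cells from Foxp3cre/+ TKTfl/fl females, and WT Treg were cells with the same surface gate from Foxp3cre/+ females with intact TKT. All mice were C57BL/6, 7 weeks old and described as chimeric, the tissue was spleen and lymph node, and 50000 cells went into each reaction. Both groups thus carry Cre from a single Foxp3 allele. Foxp3 is X-linked, so Cre and YFP mark only the Treg cells of such females that use that allele. The number of mice behind each library is not given in the sources used here.

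There was 1 library per group, so every difference below is one between 2 libraries, has no replicate check and no p-value. The lists covered 20.7 Mb in cKO and 36.0 Mb in WT, and the read depth is unknown, so the absence of a peak and a signal too weak to be called cannot be told apart. Of 6 Treg markers, 5 had a peak in both lists (none was assigned to Tnfrsf18), as had 4 of 5 T cell markers. Peaks fell at 1 of 5 B cell markers in cKO and 2 of 5 in WT, and in both lists at 2 of 5 myeloid, 2 of 3 NK, 1 of 2 CD8 T and 2 of 4 erythroid markers. Ms4a1, Pax5, Itgam, Csf1r, Ncr1, Cd8a and Hba-a1 had none in either.

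Glycolysis breaks glucose down to pyruvate, which is either turned into lactate and exported or burned in mitochondria, and the pyruvate dehydrogenase kinases hold back the second route. Transketolase joins this pathway from the side, because it moves carbon between pentose phosphates and the glycolytic intermediates fructose 6-phosphate and glyceraldehyde 3-phosphate. In T cells Myc and Hif1a are the main transcriptional activators of glycolytic genes, and Foxp3 is known to restrain Myc and glycolysis while favouring oxidative metabolism.

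Most members had accessible promoters, and at RefSeq starts these were the same in both libraries, as were most starts of all genes. At least 1 peak was assigned to 32 of the 37 members in cKO (86.5%) and to 33 in WT (89.2%), beside 42.5% and 52.5% of 21900 RefSeq protein-coding symbols. A peak of the promoter class, within 3 kb of a transcription start site (TSS), was assigned to 31 members in each list (83.8%), beside 38.3% of all symbols in cKO and 45.5% in WT. All 45 cKO peaks of the set had a WT partner, meaning a WT peak that overlapped them by at least 1 bp. That none of 45 lacked a partner allows a share of up to 6.67% without one, taking 3 counts of 45 as the limit for a count of 0 (the Wilson 95% interval of the shared part is 92.1 to 100%), and over the whole cKO list 97.6% had one. In the other direction, 45 of 64 WT peaks of the set overlapped a cKO peak (70.3%, Wilson 95% interval 58.2 to 80.1, counting error only), beside 56.1% of all WT peaks. By gene, every WT peak was shared at 19 members and some at 13, and Pfkfb4 alone had WT signal with no shared peak under its own symbol. With a single WT peak, as at 16 members, sharing can only be all or none. The same count over all genes is not given here, so these counts do not set the members apart from other genes. The overlap share rested on the score limit: with the score minimum set at the WT median in both lists it was 34.9%, and with the WT list cut to its top scores to match the cKO list in length it was 87.5%. The shares over all WT peaks under these limits are not given here, so members and whole list cannot be compared there.

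**Figure D1:**
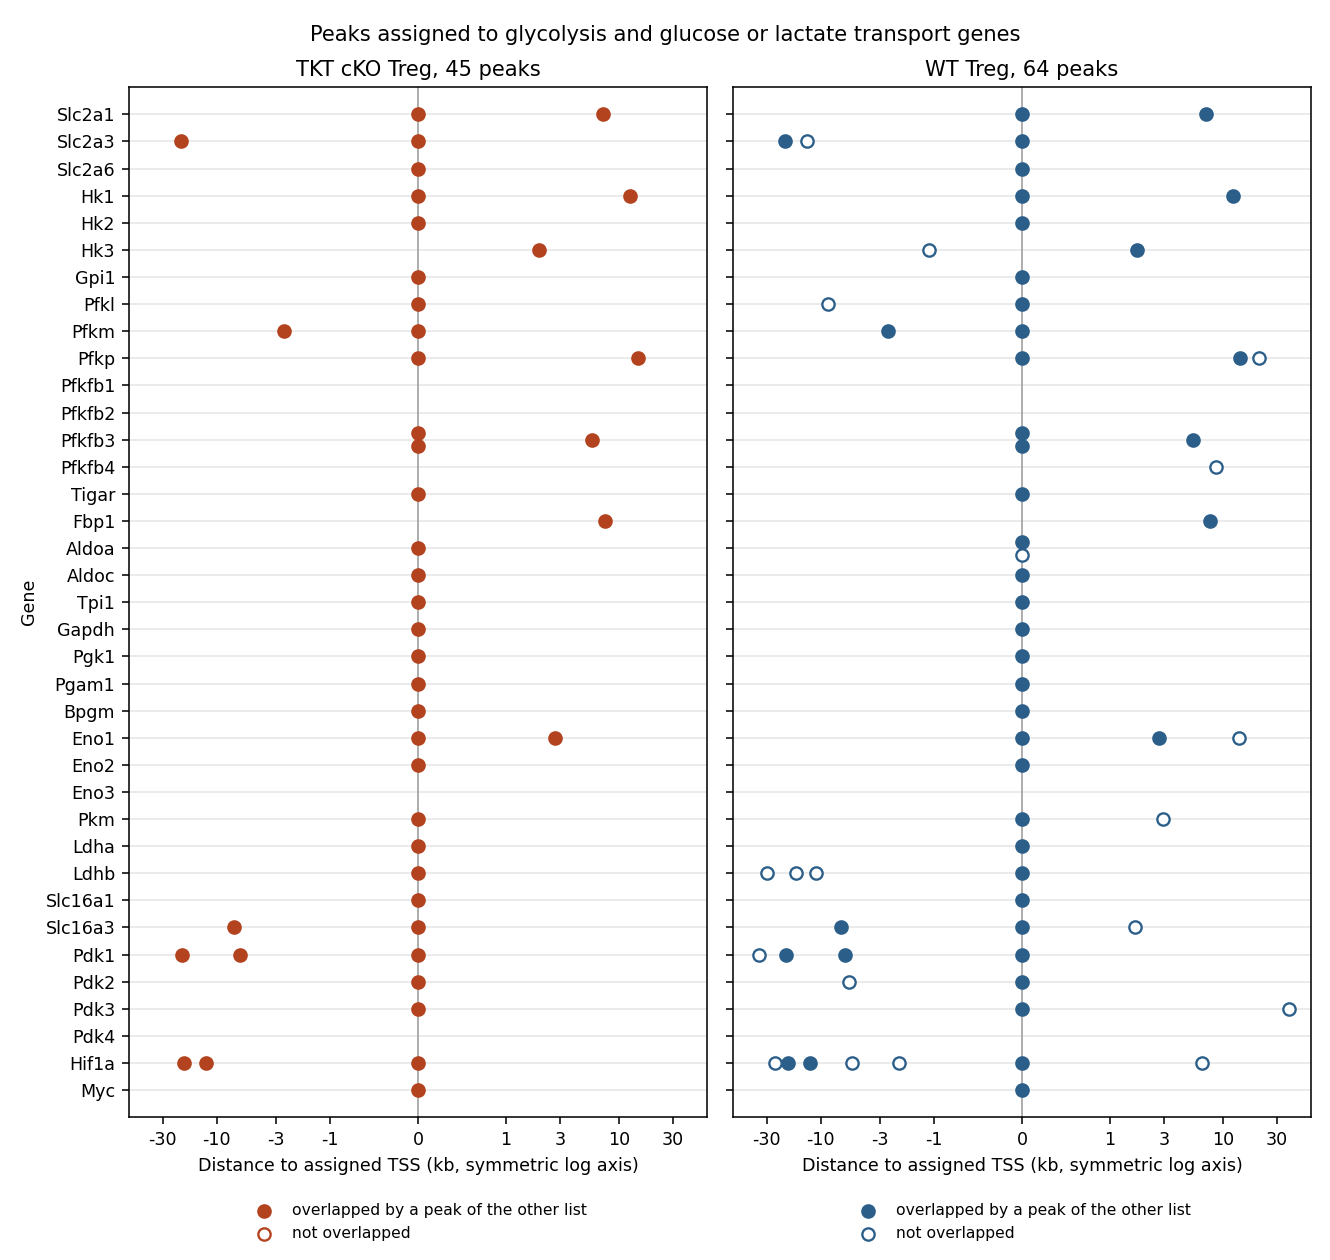
Each point is a peak assigned to a member gene, placed by its distance to the assigned TSS (kb, symmetric log axis), for TKT cKO Treg (left) and WT Treg (right). Filled points overlap a peak of the other list by at least 1 bp and open points do not; points at the same distance are set apart vertically. All 45 cKO peaks are filled, and the 19 open WT peaks lie mostly away from the TSS.

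Because the authors gave each peak to 1 symbol, start sites were also checked directly. The RefSeq table (GRCm38.p6, the assembly that mm10 denotes) holds windows of 300 bases, from 250 before a start to 50 after it, and 35 members matched with 54 windows in all, some with several starts. Slc2a3 and Myc were not among them. A peak overlapped 40 of the 54 windows in cKO and 40 in WT (74.1% each), beside 31.9% of 32851 windows of all genes in cKO and 37.1% in WT. These were the same windows, since all 54 were alike in the 2 lists. Over all genes, 10408 of the 32851 windows lay under a peak in both lists and 20574 under none. Most windows were thus alike there too, and the likeness is not particular to the members. At the gene level 31 of 35 members had a start under a peak in both libraries, and the 4 without one were Hk3, Fbp1, Eno3 and Pdk4.

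This check moved 3 members. Pfkfb2 had no peak by symbol, yet 2 of its 3 start windows lay under a peak in both lists that the authors gave to the predicted gene Gm29427, at percentile 85.2 in cKO and 90.5 in WT. The single Pfkfb4 start likewise lay under a peak given to Gm38004, at percentile 93.0 of the cKO list and 92.6 of the WT list by score. Of 4 Pfkfb1 starts, 1 lay under a peak given to Apex2, a neighbouring gene for a DNA repair nuclease, at percentile 13.9 in cKO and 61.0 in WT. A percentile here is the share of peaks of the same list with an equal or lower score, and since the lists differ in length it is no measure of change between them.

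The start windows are shown for some of the genes discussed next, chosen after their values were seen. Capitals mark ACGTG on either strand, the core of the hypoxia response element that HIF-1 binds. Where capitals read CACGTG they spell the E-box that Myc binds with Max, and each such site counts as 2 matches to ACGTG because it reads alike on both strands. Ldha (chr7:46845554-46845853, + strand), Hif1a (chr12:73907617-73907916, +), Slc16a1 (chr3:104638414-104638713, +), the downstream start of Pfkfb3 (chr2:11502041-11502340, - strand) and Pgk1 (chrX:106186850-106187149, +) lay under shared peaks, and so did Pfkfb2 (chr1:130715772-130716071, -). For Hk1 the start under the shared peak (chr10:62340372-62340671, -) and the start with no peak (chr10:62379859-62380158, -) are both given, and Pdk4 (chr6:5496229-5496528, -) had no peak in either list. Every window shown under a peak holds ACGTG, which is not so of all member windows under a peak. The most upstream Pfkm start, with no peak but 3 ACGTG matches, is not shown.
Ldha: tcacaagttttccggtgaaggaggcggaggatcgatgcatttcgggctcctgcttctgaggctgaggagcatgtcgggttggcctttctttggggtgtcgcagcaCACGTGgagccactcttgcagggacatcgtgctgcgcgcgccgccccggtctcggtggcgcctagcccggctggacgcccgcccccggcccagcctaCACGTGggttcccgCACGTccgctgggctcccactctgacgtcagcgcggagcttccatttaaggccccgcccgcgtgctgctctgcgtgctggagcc
Hif1a: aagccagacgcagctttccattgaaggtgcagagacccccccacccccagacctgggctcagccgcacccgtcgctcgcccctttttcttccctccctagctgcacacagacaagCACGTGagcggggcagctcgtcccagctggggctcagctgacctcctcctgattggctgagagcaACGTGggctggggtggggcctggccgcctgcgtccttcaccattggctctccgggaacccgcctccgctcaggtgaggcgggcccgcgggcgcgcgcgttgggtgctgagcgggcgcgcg
Slc16a1: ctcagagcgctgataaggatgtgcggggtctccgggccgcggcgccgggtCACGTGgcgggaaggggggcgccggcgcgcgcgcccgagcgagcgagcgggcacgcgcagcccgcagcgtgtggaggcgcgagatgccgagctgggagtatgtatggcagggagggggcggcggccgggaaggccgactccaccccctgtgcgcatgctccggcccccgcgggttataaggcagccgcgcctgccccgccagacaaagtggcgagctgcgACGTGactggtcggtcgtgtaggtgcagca
Pfkfb3: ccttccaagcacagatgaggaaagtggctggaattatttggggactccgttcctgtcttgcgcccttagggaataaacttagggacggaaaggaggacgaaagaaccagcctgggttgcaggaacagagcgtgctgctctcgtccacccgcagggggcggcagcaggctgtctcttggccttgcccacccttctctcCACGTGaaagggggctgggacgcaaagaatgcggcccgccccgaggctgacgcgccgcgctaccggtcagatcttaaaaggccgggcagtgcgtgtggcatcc
Pgk1: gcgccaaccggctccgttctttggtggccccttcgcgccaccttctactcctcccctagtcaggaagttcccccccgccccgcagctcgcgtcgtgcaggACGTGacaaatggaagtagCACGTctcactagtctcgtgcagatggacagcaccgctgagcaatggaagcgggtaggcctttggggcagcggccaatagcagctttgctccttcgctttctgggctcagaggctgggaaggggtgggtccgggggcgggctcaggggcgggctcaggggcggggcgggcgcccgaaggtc
Pfkfb2: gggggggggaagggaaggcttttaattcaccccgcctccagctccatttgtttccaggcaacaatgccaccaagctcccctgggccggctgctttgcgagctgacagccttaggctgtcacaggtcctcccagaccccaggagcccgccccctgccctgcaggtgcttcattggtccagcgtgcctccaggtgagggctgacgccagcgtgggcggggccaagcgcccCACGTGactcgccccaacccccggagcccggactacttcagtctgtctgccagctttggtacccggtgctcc
Hk1, start under the shared peak: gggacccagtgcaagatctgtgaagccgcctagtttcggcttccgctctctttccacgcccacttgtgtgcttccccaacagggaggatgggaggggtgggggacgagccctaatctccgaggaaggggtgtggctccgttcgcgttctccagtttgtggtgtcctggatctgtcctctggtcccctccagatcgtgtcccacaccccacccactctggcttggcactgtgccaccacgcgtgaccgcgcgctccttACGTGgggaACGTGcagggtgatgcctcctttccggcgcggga
Hk1, start with no peak: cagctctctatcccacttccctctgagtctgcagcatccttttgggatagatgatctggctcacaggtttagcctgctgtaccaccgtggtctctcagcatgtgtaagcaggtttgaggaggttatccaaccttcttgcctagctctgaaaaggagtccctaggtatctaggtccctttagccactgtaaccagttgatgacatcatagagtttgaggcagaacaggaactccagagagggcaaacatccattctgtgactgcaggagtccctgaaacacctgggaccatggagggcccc
Pdk4: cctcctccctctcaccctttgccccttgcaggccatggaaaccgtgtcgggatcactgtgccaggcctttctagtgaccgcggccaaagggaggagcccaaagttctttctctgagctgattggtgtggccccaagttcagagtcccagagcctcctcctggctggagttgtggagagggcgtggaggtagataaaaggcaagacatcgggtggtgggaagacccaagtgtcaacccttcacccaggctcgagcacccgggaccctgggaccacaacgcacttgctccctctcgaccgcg

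Of the 40 member windows under a peak in both lists, 20 held ACGTG (50.0%) and 6 held CACGTG (15.0%), at the starts of Ldha, Hif1a, Slc16a1, Pfkfb3, Pfkfb2 and Pdk2. Among all 10408 windows under a peak in both lists the shares were 27.9% and 10.9%, and among all 32851 windows 19.6% and 7.15%. The GC box GGGCGG, searched on both strands, was in 27 of the 40 member windows (67.5%), beside 67.2% of the 10408. Of the 14 member windows without a peak, 3 held ACGTG, 1 held CACGTG (the most upstream Pfkm start) and 1 held the GC box. Several windows of 1 gene overlap each other (2 of the 3 at Aldoa, for example), so these are not independent counts. Ldha, the lactate dehydrogenase subunit favoured in glycolytic cells, had 5 ACGTG matches, the most among the members, from 2 E-boxes and 1 further site. The upstream Hk1 start and Pdk4, both without a peak, held none of the 3 motifs.

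Glucose enters through the Slc2a carriers, and all 3 in the set had a promoter peak in both libraries. Slc2a1 (GLUT1, the main carrier of activated T cells) had a promoter peak at chr4:119108513-119109470 in cKO and chr4:119108424-119109738 in WT, at percentiles 59.2 and 76.1 of their lists. A second Slc2a1 peak, in intron 1, was shared as well but lay at percentile 0.981 of the cKO list and 34.0 of the WT list. Slc2a3 (GLUT3, a high-affinity carrier) had 2 cKO peaks and 3 WT peaks. Its promoter (percentile 62.8 in cKO, 68.1 in WT) and a region 20763 bp upstream in WT were shared, and the unshared WT peak, 545 bp wide, lay between them at chr6:122755931-122756475, 13186 bp upstream. Slc2a6 (GLUT6) had 1 promoter peak in each library, at percentiles 43.9 and 76.7 of the cKO and WT lists.

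The hexokinases trap glucose by phosphorylation and differed among themselves. Hk1, the ubiquitous form, had the strongest promoter peak of the family, at percentile 96.4 of the cKO list and 98.2 of the WT list, over the start at chr10:62340421 and not over the one 5′ of it. Its intron 1 peak was shared but was 621 bp wide in cKO and 2227 bp in WT, a width ratio of 0.28. Hk2, the inducible form of growing cells, had a single broad promoter peak of 2769 bp in cKO and 2577 bp in WT, at percentiles 25.7 and 56.5, and 2 ACGTG matches at its start. Hk3, best known from myeloid cells, had no peak over its RefSeq start. An Hk3 region, chr13:55017969-55018963 in cKO and chr13:55018004-55019158 in WT, was shared, and 1 WT peak 1111 bp upstream of the start was not. Gpi1, the next enzyme, had 1 shared promoter peak, at percentile 46.8 in cKO and 76.9 in WT.

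All 3 phosphofructokinase genes, which encode the committing step, had shared promoter peaks. Pfkl, the liver-type subunit, held the highest place of any member, at percentile 99.1 in cKO (1335 bp wide) and 99.7 in WT (1097 bp). Pfkp, the platelet-type subunit, had promoter peaks of 2515 bp in cKO and 2511 bp in WT at percentiles 70.5 and 82.9. Pfkm, the muscle-type subunit, had the lowest promoter place of the family, at percentile 34.1 in cKO and 69.2 in WT, over 2 of its 4 starts, plus a shared peak 2539 bp (WT) before its most upstream start. The unshared WT peaks lay 8571 bp upstream of Pfkl, at chr10:78018378-78019530, and in intron 2 of Pfkp, at chr13:6626711-6627756.

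Fructose 2,6-bisphosphate, the allosteric activator of phosphofructokinase, is made and removed by the Pfkfb enzymes. Pfkfb3, the isoform with the strongest kinase side, shared all 3 of its peaks. A pair of promoters far apart were open in both libraries, over the starts at chr2:11553929 (percentiles 83.5 in cKO and 90.9 in WT) and chr2:11502090 (71.2 and 75.7). Pfkfb4 had no cKO peak by symbol and 1 WT peak in intron 3, 633 bp wide at percentile 45.3, while its start lay under the shared peak described above. Tigar, which lowers fructose 2,6-bisphosphate and sends sugar toward the pentose phosphate pathway, had 1 shared promoter peak at percentile 60.5 of the cKO list and 88.7 of the WT list. Fbp1, an enzyme of gluconeogenesis, had no peak at its start but a shared one in intron 1, at chr13:62880027-62880729 in cKO and chr13:62879899-62880640 in WT.

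Among the aldolases and enolases of the set, the general isoform stood higher in both lists than the set's isoforms known from other tissues. Aldoa stood at percentile 87.6 in cKO and 94.0 in WT, whereas Aldoc, the brain-type aldolase, stood at 9.39 in cKO and 60.3 in WT. Eno1 stood at 64.5 in cKO and 85.6 in WT, Eno2 (neuronal enolase) at 35.2 and 63.9, and Eno3 (muscle enolase) had no peak in either list. The remaining steps each had 1 shared promoter peak. In cKO these lay at percentile 96.8 for Gapdh, 90.5 for Pgam1, 76.1 for Bpgm, 69.2 for Tpi1 and 43.1 for Pgk1. In WT the same genes lay at 94.2, 98.1, 87.4, 87.6 and 74.9. Bpgm makes the 2,3-bisphosphoglycerate of red cells. Pkm, which yields pyruvate, had its promoter peak at 92.6 in cKO and 93.7 in WT.

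Unshared WT peaks in this stretch lay near 3 genes. Aldoa had 1 of 789 bp at chr7:126808845-126809633, at the start of its transcript Aldoa-214 and the sole WT peak of the class within 1 kb of a TSS in the set that had no cKO partner. Eno1 had 1 of 417 bp, narrower than the narrowest cKO peak (465 bp), 13725 bp from its assigned TSS. The Pkm one was 502 bp wide at percentile 65.2, at chr9:59659493-59659994, 2920 bp downstream of the assigned start.

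At the pyruvate branch, lactate dehydrogenase and the lactate carriers had shared promoters. Ldha stood at percentile 86.1 in cKO and 86.2 in WT, and both of its start windows lay under the same peak. Ldhb, the subunit of oxidative tissues, stood at 55.5 in cKO and 72.3 in WT and had 3 further WT peaks 10933, 16632 and 30222 bp upstream, none of them shared and all at or below percentile 31.3. Slc16a1 (MCT1), which moves lactate both ways, had 1 promoter peak, 1804 bp wide at percentile 54.4 in cKO and 2036 bp at percentile 66.7 in WT. Slc16a3 (MCT4), the lactate exporter of glycolytic cells, shared its promoter (percentile 38.2 in cKO, 38.4 in WT) and a region 6701 bp upstream, and a 569 bp WT peak 1662 bp downstream of another assigned start had no partner.

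The pyruvate dehydrogenase kinases split into 3 genes with open promoters and 1 without. Pdk1, a classic target of HIF-1 with no ACGTG in its start windows, stood at percentile 91.9 in cKO and 88.6 in WT at its promoter. It had 3 cKO peaks and 4 WT peaks, and the upstream ones reached 34935 bp from its TSS, 2 of the 3 in WT inside the neighbouring gene Itga6. The unshared one was in exon 13 of Itga6, at chr2:71837155-71838289, and the gene that these regions act on is not known from the lists. Pdk2 stood at 89.6 in cKO and 90.0 in WT, and its unshared WT peak, 470 bp wide, lay in exon 23 of Itga3. Pdk3 stood at 41.1 in cKO and 73.1 in WT, with an unshared WT peak in intron 5. Pdk4, the isoform induced by fasting, had no peak in either list.

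The 2 transcription factors had contrasting layouts. Hif1a had 3 cKO peaks and 7 WT peaks, the most of any member. Its promoter peak was at chr12:73907491-73908648 in cKO and chr12:73907239-73908461 in WT, at percentile 89.7 of the cKO list and 79.6 of the WT list. Upstream, 4 WT peaks lay in intron 1 of the predicted gene Gm15283, of which those 12365 and 19439 bp from the assigned TSS were shared and those at 5326 and 25546 bp were not. The 2 further unshared WT peaks were narrow (474 and 570 bp) and at percentiles 17.5 and 5.58. Myc had 1 region, 2927 bp wide at percentile 59.5 in cKO and 4614 bp at percentile 68.4 in WT, the widest WT peak of the set. The WT Myc region also overlapped a second cKO peak, which was assigned to the predicted gene Gm37947.

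The 19 unshared WT peaks were narrow and mostly of low score. They were 417 to 1153 bp wide (median 626), against 742 to 4614 bp (median 1329) for the 45 shared ones, and none scored above percentile 66.5. The median percentile was 31.3 for the unshared and 74.9 for the shared. Over the whole WT list the unshared peaks had a median width of 662 bp and a median percentile of 25.3, and the shared ones 1213 bp and 71.4. By class, 6 of the 19 were intronic, 6 distal intergenic, 2 exonic and 5 promoter-class, 4 of these between 1 and 3 kb from the TSS.

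**Figure D2:**
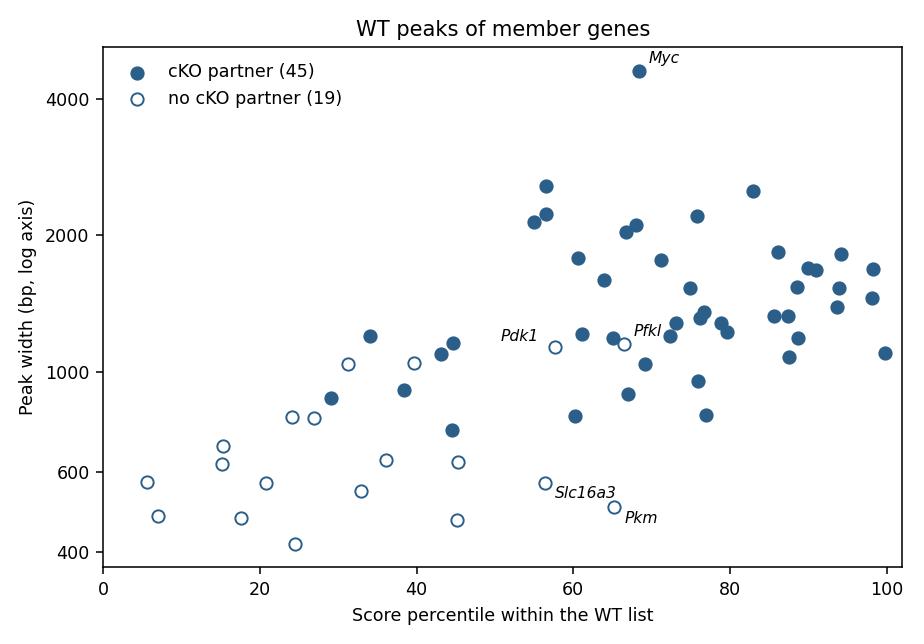
Each point is a WT peak of a member gene, by its score percentile within the WT list (x) and its width in bp (y, log axis). The 19 open points, with no cKO partner, lie at or below percentile 66.5 and at or below 1153 bp; the 45 filled points have a cKO partner.

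When WT peaks were split by score into 5 bins of 20% each, the member shares were higher in the upper bins, as over the whole list. From the lowest bin to the highest, 0 of 5, 3 of 11, 6 of 10, 21 of 23 and 15 of 15 member peaks had a cKO partner. Over all WT peaks the shares in these bins were 10.4%, 26.3%, 55.0%, 89.2% and 99.2%, each inside the interval of the member share. Only 7.81% of the member peaks fell in the lowest bin, which holds 19.7% of the whole list. Near promoters, 31 of 32 member peaks within 1 kb of a TSS had a cKO partner (96.9%, 84.3 to 99.4), beside 79.8% of all such WT peaks. Outside the promoter class the count was 11 of 25 (44.0%, 26.7 to 62.9), beside 41.4%.

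**Figure D3:**
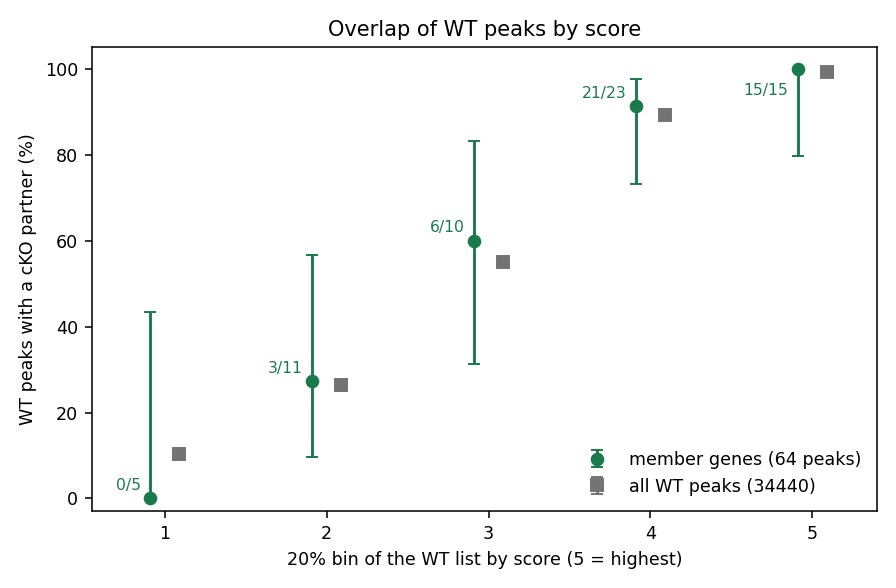
Percentage of shared peaks in WT, in 5 bins of the WT list by score (each 20%; 5 is the highest), for the 64 peaks of the member genes (circles, with counts) and all 34440 WT peaks (squares); bars are Wilson 95% intervals and cover counting error only. The member shares run from 0 of 5 to 15 of 15 and the share over all peaks lies inside each of their intervals.

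The members stood in a similar order by score in both libraries. To compare like with like, ranks were taken over the 18926 regions with 1 peak in each list that overlapped no other, 44 of them in the set, so that a place of 100 is the highest score among these pairs in that library. Across the 44 member pairs Spearman's rho between the 2 places was 0.89, and 0.90 across all pairs, which share chromatin features and are a description only. The cKO place was higher at 18 member pairs and lower at 26, beside 9135 higher and 9782 lower among all pairs. The median difference, cKO minus WT, was -0.93 points for member pairs and -0.36 for all pairs, with quartiles of -7.70 and 7.31. Widths moved alike, with a median cKO to WT ratio of 0.84 in member pairs and 0.84 in all pairs.

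Of the 44, 5 pairs (11.4%) lay beyond the 5th to 95th percentile of all pairs (-20.5 to 22.1 points), beside the 10.0% of all pairs that lie there by construction. The member share is near that background, so the 5 are named only to describe where members stood farthest apart, and were chosen for that. Hk3 had place 52.0 in cKO and 16.3 in WT, 35.7 points higher, a difference that 99.4% of all pairs did not exceed. The Hif1a promoter had place 89.4 in cKO and 63.5 in WT, 25.9 points higher, whereas the shared region 19439 bp upstream of Hif1a had place 2.01 in cKO and 26.2 in WT, a difference of -24.2 points. The other upstream region of Hif1a also stood lower, at 43.8 in cKO and 62.2 in WT, inside the range of most pairs. The Slc16a3 promoter had place 36.6 in cKO and 11.9 in WT, and that of Aldoc had place 7.95 in cKO and 32.7 in WT. When promoter pairs within 1 kb alone were ranked, these differences were 14.5 points for Slc16a3 and -13.1 for Aldoc, and 38.4 for Hif1a. The values for Slc16a3 and Aldoc then lay inside the 5th to 95th percentile of that ranking, -19.1 to 21.9 points. These places rest on 1 library a group, so library and genotype cannot be told apart. Among the 5 myeloid markers, set beside Hk3, Lyz2 (percentile 39.1) and Cebpa (10.5) had a peak in cKO, and Spi1 (60.4) and Cebpa (58.8) had one in WT. Itgam and Csf1r had none, and the part of these cells in the Hk3 difference was not tested.

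**Figure D4:**
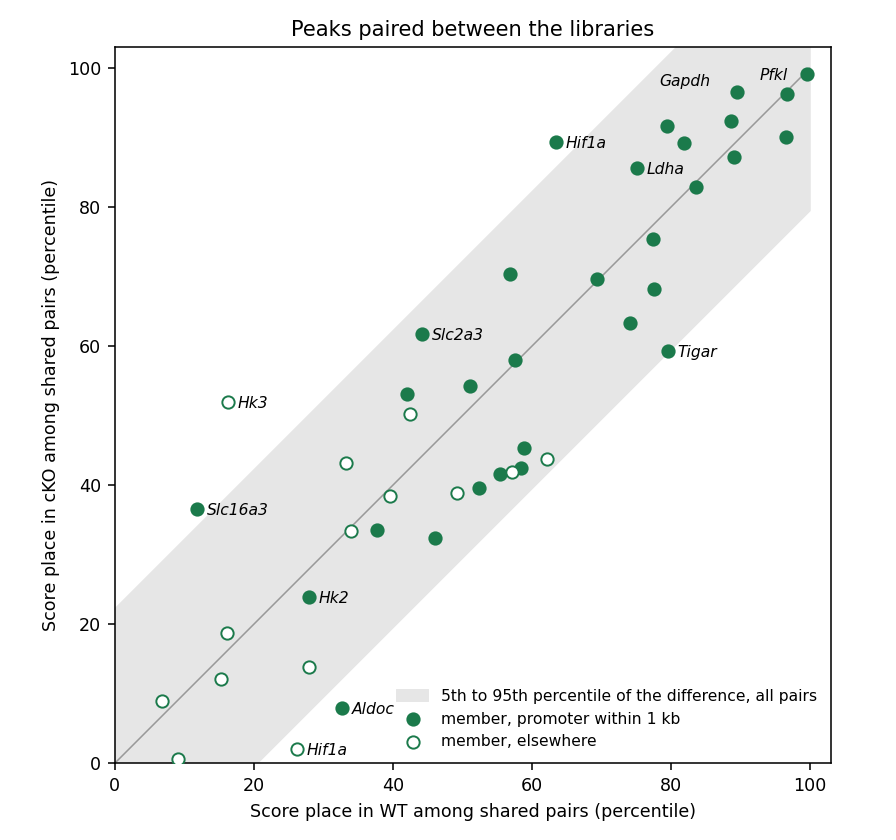
Place by score among the 18926 regions paired 1 to 1 (percentile, 100 is the highest) in cKO (y) and WT (x); points are the 44 member pairs, filled for promoters within 1 kb and open elsewhere. The grey band holds differences between the 5th and 95th percentiles of all pairs (-20.5 to 22.1 points); Hk3, the Hif1a promoter and Slc16a3 lie above it, and Aldoc and a Hif1a upstream region below it.

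The wider pathway, listed as 58 further genes (other carriers, paralogs, the pyruvate dehydrogenase complex, and partners and regulators of HIF-1 and Myc), was counted in the same way. Of these, 40 had a cKO peak and 46 a WT peak, where 42.5% and 52.5% of all protein-coding symbols had one. All 54 cKO peaks had a WT partner, beside 97.6% of the whole list, and 53 of 84 WT peaks overlapped a cKO peak (63.1%, 52.4 to 72.6), an interval that holds the 56.1% of all WT peaks. Genes with a WT peak alone were Slc2a2, Hkdc1, Pklr, Pdp1, Mlxipl and Mycn, with best WT percentiles between 2.45 and 42.7. Genes without a peak in either list included the paralogs Pgam2 of muscle and Pgk2 and Ldhc of testis. By contrast, the paralogs Slc2a4, Eno4 and Fbp2 each had 1 promoter-class peak in each list, and it was shared. They stood at percentiles 85.5, 79.6 and 30.9 in cKO, and at 84.8, 95.9 and 63.3 in WT. Partners and regulators of the 2 transcription factors ranged widely in best percentile over any of their peaks. Arnt, the partner of Hif1a, stood at 83.6 in cKO and 92.9 in WT, and Max, the partner of Myc, at 92.5 in cKO and 93.5 in WT, each with a single promoter peak. Egln1 and Egln3, prolyl hydroxylases that mark Hif1a for breakdown, stood at 14.0 and 17.2 in cKO, against 40.6 and 43.6 in WT. Egln2, of the same family, stood far higher, at 93.6 in cKO and 97.3 in WT. Hif1an and Vhl, also on the list, stood at 90.1 and 62.9 in cKO, against 95.8 and 77.1 in WT. Mycl, a relative of Myc, stood at 35.2 in cKO and 58.7 in WT. The mitochondrial pyruvate carrier gene Mpc1 stood at 97.7 in cKO and 98.9 in WT, and Mpc2 had no peak by symbol but a start window under a peak in both lists. Txnip, which lowers glucose uptake, stood at 94.6 in cKO and 95.3 in WT.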

How the data were processed

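ATAC-seq peak lists of 2 libraries were used, 1 per group, and the genotype labels gave the groups. Build mm10 and the tools Trimmomatic, FastQC, BWA and MACS2 are named in the submitters' processing notes. Their versions and settings, and any Tn5 shift or duplicate removal, are not stated in the sources used here. The authors deposited for each peak its position, width, annotation class, assigned gene, distance to the TSS and a score, whose meaning the file headers do not state. Peak caller scores generally move with depth, so the score was used only to rank or filter peaks within a list, apart from 1 setting with a common minimum. Depth is unknown, as read totals were not used here.

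From these lists, overlaps of at least 1 bp, percentiles, Wilson 95% intervals (scipy 1.17.1) and ranks among 1-to-1 pairs were computed in Python 3.11.15. Overlaps were checked against bedtools 2.31.1 and differed at 0 of 19680 cKO and 0 of 34440 WT peaks, and were tested on simulated data. Of 19459 symbols in the lists, 15705 (80.7%) matched RefSeq symbols or synonyms, and all 37 members did. Promoter windows are from RefSeq (GRCm38.p6). Motifs were searched as letters on both strands. In 1672 overlapping window pairs on opposite strands, 1672 were reverse complements, so windows read 5′ to 3′. By the rule for named genes every member was described, in full where it had 2 or more WT peaks or a peak in 1 list, and other pathway genes were named where a peak lay in 1 list or at a paralog. Arnt, Max, Egln1, Egln2, Egln3, Hif1an, Vhl, Mycl, Mpc1, Mpc2 and Txnip were named after their values were seen. The members and lists were chosen with earlier results of these data known. Genes singled out by their place among pairs, and the windows printed, were chosen after their values were seen.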

Additional observations from a re-analysis of the deposited data

How the results depend on the processing

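No paired analysis was possible because TKT cKO and WT Treg have 1 library each, which also leaves no replicate to omit. The shared part of the member WT peaks was 62.5% with 50% reciprocal overlap, 53.5% above each list's own median score, 87.5% with equal numbers of peaks (the WT list cut to its highest scores), 34.9% with the WT median as score minimum in both lists, 71.4% without WT peaks narrower than any cKO peak, 96.9% among promoter peaks within 1 kb and 80.0% within 10 kb of a RefSeq start. The share of member cKO peaks with a WT partner was 88.9% with the reciprocal overlap. For WT promoter peaks within 1 kb the shared part was 73.3% above own medians, 100% with lists of equal length and 50.0% with the common minimum. Member cKO peaks numbered 24 above the median scores and 15 with the common minimum, which left 14 members with a cKO promoter peak, and WT peaks numbered 32 when limited to promoters within 1 kb. The common minimum takes more peaks from the cKO list by construction, as its median score was 16.6 against 28.1 in WT. By gene, 32 members had a shared WT peak in the main setting, 31 with the reciprocal overlap, 32 with equal numbers, 21 above the median scores and 14 with the common minimum. All these values are for members alone. Outside the main setting, the share over all WT peaks is given here only for promoter peaks within 1 kb (79.8%). In the other settings members and whole list cannot be compared. Settings added after the values were seen left out Hif1a (73.7% of WT peaks shared) or ranked other sets of pairs. Among promoter pairs within 1 kb alone, the differences in place were 38.4 points for Hif1a, 14.5 for Slc16a3 and -13.1 for Aldoc. Slc16a3 and Aldoc then lay inside the 5th to 95th percentile of that ranking (-19.1 to 21.9). With 50% reciprocal pairs or autosomal pairs, the named pairs that could be ranked stayed beyond it, and the Hif1a upstream pair could be ranked only among autosomal pairs. Unknown depth limits every count of missing peaks.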
